A study of Mus musculus with 4 samples.

Results

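Mitosis genes were followed in mammary tissue with and without Sca-1. The set comprised 50 genes chosen by name, covering mitotic cyclins and kinases, the spindle and its checkpoint, kinetochores, condensin, anaphase onset and cytokinesis, and every probe set on the arrays that carried 1 of these symbols was taken. Of the 50 genes 47 had a named probe set, 90 probe sets in all, out of 12393 genes with a named probe set. Ccnb1, Cdca8 and Espl1 had none and are not reported here. The 4 groups were mammary gland of wild-type mice at 6 weeks, mammary gland of Sca-1 knockout mice at 6 weeks, and mammary tumors of wild-type and of Sca-1 knockout mice, whose age the labels used here do not give. All mice were female and nulliparous, of C57BL/6 background and on standard chow, the wild-type mice being age-matched littermates. Tumors were induced with 15 mg of MP (Depo-Provera, a depot progestin) injected under the skin and then DMBA, a polycyclic hydrocarbon carcinogen, given by gavage in 4 weekly doses of 1 mg. The group labels of the glands name no carcinogen. Sca-1 (stem cell antigen-1) is a cell surface protein used to mark stem and progenitor cells.

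Each group was 1 array hybridised with RNA pooled from 5 mice, so that no spread between mice could be measured, no test was possible and every difference is one between 2 arrays. Whole tissue was extracted, and fewer dividing cells and less RNA of these genes per cell cannot be told apart. As a check of the tissue, 12 of 14 measured luminal epithelial genes had a signal of at least 168, the median of all values and used below as a floor, on every array, and all 13 skeletal muscle and 10 white adipocyte genes measured were at or above it in both glands. The gland arrays thus carried signals of muscle and fat genes beside epithelial ones, and these markers do not tell gland epithelium from tumor. The ratio of 3' to 5' control probe sets, a sign of RNA integrity, was between 1.23 and 2.35 for Actb and between 0.768 and 1.72 for Gapdh, with the highest value of each in the wild-type gland. The level of Sca-1 itself was not used here to check the genotypes.

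In mitosis, a cell condenses its replicated chromosomes, attaches them to a bipolar spindle, checks the attachments and then separates chromatids and cytoplasm. Most of the machinery is made anew in each cell cycle. Its genes are silent in resting cells and switched on together in the G2 phase, and their mRNAs are therefore widely used to gauge how many cells of a tissue are dividing. The young mammary gland grows from terminal end buds in which epithelial cells divide, whereas most cells of the fat pad around it are at rest.

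This common timing is known to be written into the promoters. The CCAAT box binds the factor NF-Y, and the cell cycle genes homology region (CHR), with the letters TTTGAA or TTCGAA, binds the MuvB complex, which represses these genes in resting cells as part of DREAM and activates them in G2 together with B-Myb and Foxm1. RefSeq promoters (GRCm38.p6, 250 bases before to 50 bases after the annotated start) were at hand for 42 of the 50 genes, in 45 entries, and both motifs were searched on both strands. The entries below are shown because they allow the letters to be set beside the signals. Each runs 5′ to 3′ over the 200 bases before the start, with CCAAT and CHR letters in capitals on whichever strand they lie, so that ATTGG and TTCAAA are the reverse forms. The first 8 genes were picked from the 27 measured members with both motifs, and in them at least 1 match of each motif precedes the start. In Ccnb2 a further CHR match, at position 5 after the start, is not printed. The signals of these 8 genes were from 1.90-fold to 2.33-fold higher in the knockout tumor than in the wild-type tumor. Of all 27 members with both motifs 18 were at least 2-fold higher, where 1.85% of all 12393 genes were. Those not printed ran from 1.33-fold higher for Kif4, which was below the floor on every array, to 3.19-fold for Bub1. Cenpa and Smc2, among them, were 1.77-fold and 1.78-fold higher.
Mki67 (chr7:135716380-135716579, minus strand): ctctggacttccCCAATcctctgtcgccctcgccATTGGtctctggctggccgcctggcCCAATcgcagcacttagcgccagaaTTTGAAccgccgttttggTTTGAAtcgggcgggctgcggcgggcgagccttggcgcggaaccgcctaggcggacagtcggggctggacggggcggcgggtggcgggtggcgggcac
Top2a (chr11:99024190-99024389, minus strand): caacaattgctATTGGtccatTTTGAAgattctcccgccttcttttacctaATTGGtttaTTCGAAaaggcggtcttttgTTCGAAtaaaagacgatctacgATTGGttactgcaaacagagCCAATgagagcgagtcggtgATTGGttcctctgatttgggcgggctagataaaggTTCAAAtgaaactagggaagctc
Cdk1 (chr10:69352913-69353112, minus strand): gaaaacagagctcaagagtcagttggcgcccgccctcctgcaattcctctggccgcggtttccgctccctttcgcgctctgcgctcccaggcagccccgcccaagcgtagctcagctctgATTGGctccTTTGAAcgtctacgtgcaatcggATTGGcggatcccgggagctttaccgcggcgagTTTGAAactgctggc
Ccnb2 (chr9:70421555-70421754, minus strand): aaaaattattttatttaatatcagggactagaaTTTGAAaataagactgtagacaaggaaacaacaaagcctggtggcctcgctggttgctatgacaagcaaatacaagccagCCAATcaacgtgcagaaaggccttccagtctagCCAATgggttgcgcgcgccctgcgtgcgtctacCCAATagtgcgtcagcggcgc
Cdc20 (chr4:118437344-118437543, minus strand): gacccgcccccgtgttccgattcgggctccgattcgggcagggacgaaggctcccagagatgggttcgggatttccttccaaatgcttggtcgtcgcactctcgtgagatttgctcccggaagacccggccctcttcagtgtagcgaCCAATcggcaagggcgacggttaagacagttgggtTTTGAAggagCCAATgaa
Ube2c (chr2:164769729-164769928, plus strand): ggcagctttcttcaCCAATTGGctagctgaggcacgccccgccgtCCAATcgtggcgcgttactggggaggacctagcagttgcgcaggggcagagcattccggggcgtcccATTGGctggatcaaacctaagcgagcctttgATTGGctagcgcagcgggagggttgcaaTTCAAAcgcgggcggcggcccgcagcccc
Kif11 (chr19:37376182-37376381, plus strand): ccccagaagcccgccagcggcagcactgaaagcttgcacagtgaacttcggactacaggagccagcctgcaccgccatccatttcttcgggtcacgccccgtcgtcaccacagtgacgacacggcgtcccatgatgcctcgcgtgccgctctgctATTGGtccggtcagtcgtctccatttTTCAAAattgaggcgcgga
Kif22 (chr7:127042421-127042620, minus strand): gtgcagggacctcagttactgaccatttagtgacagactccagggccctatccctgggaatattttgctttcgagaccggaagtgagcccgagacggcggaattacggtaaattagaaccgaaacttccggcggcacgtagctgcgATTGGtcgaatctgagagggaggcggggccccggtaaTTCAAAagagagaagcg

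Cks1b and Bub3 hold both motifs as well, but their signals were only 1.28-fold and 1.07-fold apart between the tumors. Bub3 has 2 promoter entries in the table, and the one with the lower start coordinate is printed.
Cks1b (chr3:89418292-89418491, minus strand): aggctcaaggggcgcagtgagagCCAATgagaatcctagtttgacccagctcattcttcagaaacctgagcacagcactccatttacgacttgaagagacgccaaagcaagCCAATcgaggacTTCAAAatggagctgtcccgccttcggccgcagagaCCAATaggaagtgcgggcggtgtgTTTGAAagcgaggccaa
Bub3 (chr7:131560170-131560369, plus strand): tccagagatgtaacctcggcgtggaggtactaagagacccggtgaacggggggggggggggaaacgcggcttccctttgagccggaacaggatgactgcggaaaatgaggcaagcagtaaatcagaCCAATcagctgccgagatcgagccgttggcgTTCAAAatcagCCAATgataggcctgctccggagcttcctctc

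Ncaph, Melk and Pttg1 hold neither set of letters in the 300 bases. Ncaph and Melk were 2.32-fold and 2.08-fold higher in the knockout tumor, and Pttg1 was 1.10-fold lower.
Ncaph (chr2:127133955-127134154, minus strand): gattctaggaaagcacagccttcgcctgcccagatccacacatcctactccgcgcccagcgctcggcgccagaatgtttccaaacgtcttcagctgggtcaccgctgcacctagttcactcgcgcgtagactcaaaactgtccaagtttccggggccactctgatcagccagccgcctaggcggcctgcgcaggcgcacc
Melk (chr4:44300717-44300916, plus strand): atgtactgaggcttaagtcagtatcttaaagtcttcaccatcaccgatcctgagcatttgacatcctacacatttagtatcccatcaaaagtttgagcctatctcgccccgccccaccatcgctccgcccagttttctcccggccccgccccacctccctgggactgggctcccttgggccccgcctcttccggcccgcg
Pttg1 (chr11:43425982-43426181, minus strand): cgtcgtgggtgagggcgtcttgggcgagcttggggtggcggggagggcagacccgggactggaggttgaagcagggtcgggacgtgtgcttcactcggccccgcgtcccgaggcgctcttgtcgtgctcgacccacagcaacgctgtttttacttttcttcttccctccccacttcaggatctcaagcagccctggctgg

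CCAAT was found in 77.8% of the 45 mitosis promoters and in 37.4% of all 32851 promoters of the table, and CHR letters in 77.8% and 19.2%. Both occurred together in 32 mitosis entries (71.1%) and in 7.52% of all promoters. At least 2 CCAAT boxes were present in 55.6% and 11.7%. A CCAAT and a CHR run shared a base in 1 mitosis entry and in 0.146% of all promoters. The matches also differed in place. Of 48 CHR matches in the mitosis promoters 66.7% lay within 50 bases of the start, against 25.2% of 7260 matches in all promoters. Of 84 CCAAT matches 60.7% lay in the 100 bases before the start, against 43.6% of 17707. With these windows exchanged the differences were small, 31.2% against 30.0% for CHR and 33.3% against 28.2% for CCAAT. The plot of motif positions shows, for the mitosis promoters, CCAAT boxes ahead of the start and CHR letters around it. Of E2F-type letters only 2 forms were searched. TTTCCCGC was found in 2.22% of mitosis promoters and 1.07% of all, and TTTGGCGC in 2.22% and 0.514%, 1 entry each. Other E2F-type letters were not searched, so how common they are in these windows was not measured.

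**Figure D1:**
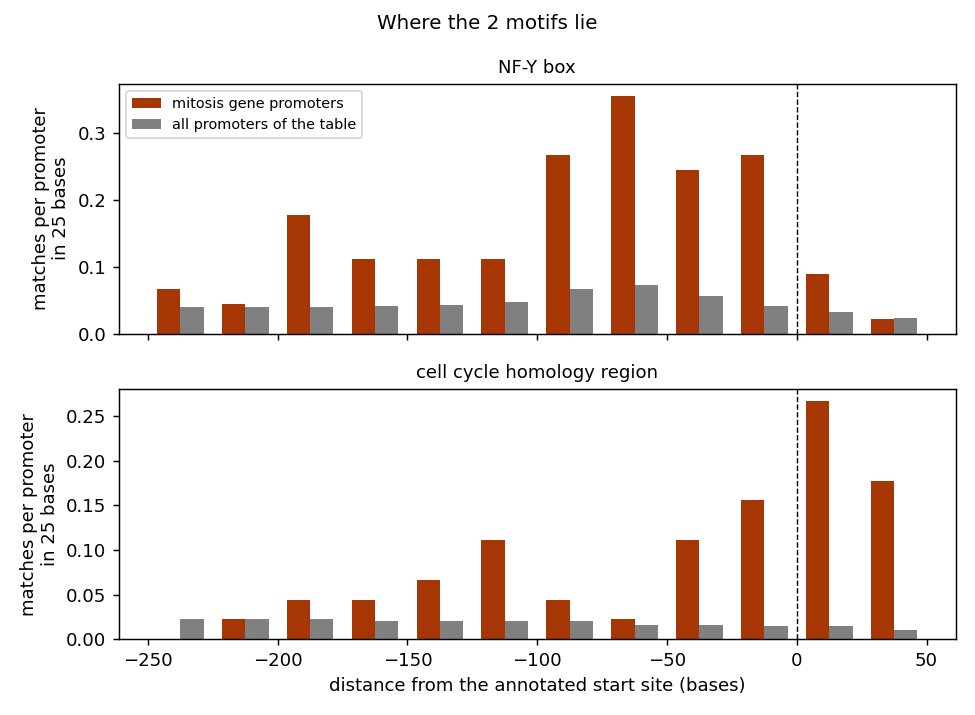
Matches per promoter in bins of 25 bases, by distance in bases from the annotated start site (dashed line), for the NF-Y box (CCAAT, upper panel) and the cell cycle homology region (CHR, lower panel), in the 45 mitosis gene promoters and in all 32851 promoters of the table. In the mitosis promoters 60.7% of NF-Y box matches lie in the 100 bases before the start and 66.7% of CHR matches within 50 bases of it, against 43.6% and 25.2% in all promoters.

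The members were also grouped by these letters. The 27 measured members with both motifs in 1 promoter had a median log2 difference between the tumors of 1.03, with 18 of them at least 2-fold higher, where 1.85% of all 12393 genes were. For the 7 with neither, Birc5, Mad2l1, Melk, Ncaph, Nusap1, Plk4 and Pttg1, the median was 1.06, with 4 at least 2-fold higher. The 5 with 1 kind of motif, Anln, Cks2, Kif2c, Ndc80 and Nek2, had a median of 0.91. A match is a description of letters in a window and not a binding site, and no promoter of Foxm1, Aurkb, Ccna2, Cdc25c, Incenp, Kif20a, Smc4 or Tpx2 was in the table.

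Signals below are linear intensities in arbitrary units, given in the order wild-type gland, knockout gland, wild-type tumor, knockout tumor. Folds and differences were taken after adding 27.3 to each signal, so that those of dim genes are understated. In counts, a gene is higher or lower where it differs by at least 2-fold; beside a stated fold, these words give the direction only. The floor of 168 was reached by 43 of the 47 members on at least 1 array. Cdc25c, Nek2, Ndc80 and Kif4 did not. Members at or above the floor numbered 12 and 21 in the glands (wild type, knockout) and 29 and 42 in the tumors, and 13 reached it in the knockout tumor alone. How far probe sets of 1 gene gave different log2 differences served as the only error at hand. This spread was 0.26 for knockout against wild-type gland and 0.23 for the tumors. For tumor against gland it was 0.64 within wild type and 0.57 within knockout. It holds no variation between mice.

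The mitosis genes lay in a common order on the 4 arrays. For 39 of the 47 the signal was lowest in the wild-type gland, next in the knockout gland, then in the wild-type tumor and highest in the knockout tumor, an order held by 9.07% of all 12393 genes. Of the 43 that reached the floor 38 kept this order, against 11.5% of 8286 genes at or above it. The floor favours this order, since 13 members reached it in the knockout tumor alone and 9 in both tumors but no gland. The 8 of the 47 that did not keep the order were Cks1b, Cdc25c, Foxm1, Nek2, Kif4, Ncaph, Pttg1 and Kif23. The order was taken on the deposited signals. Among the 39, the gland difference of Cks2, Plk4, Ttk, Kif2c, Hmmr, Anln and Kif20a turned sign under other scalings. Both tumor signals were above both gland signals in 42 of the 47 (89.4%), against 29.6% of all genes and 38% of those at or above the floor. In 21 members the signal was at least 2-fold higher both in the wild-type tumor than in its gland and in the knockout than in the wild-type tumor, which held for 0.484% of all genes and 0.712% of those at or above the floor.

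**Figure D2:**
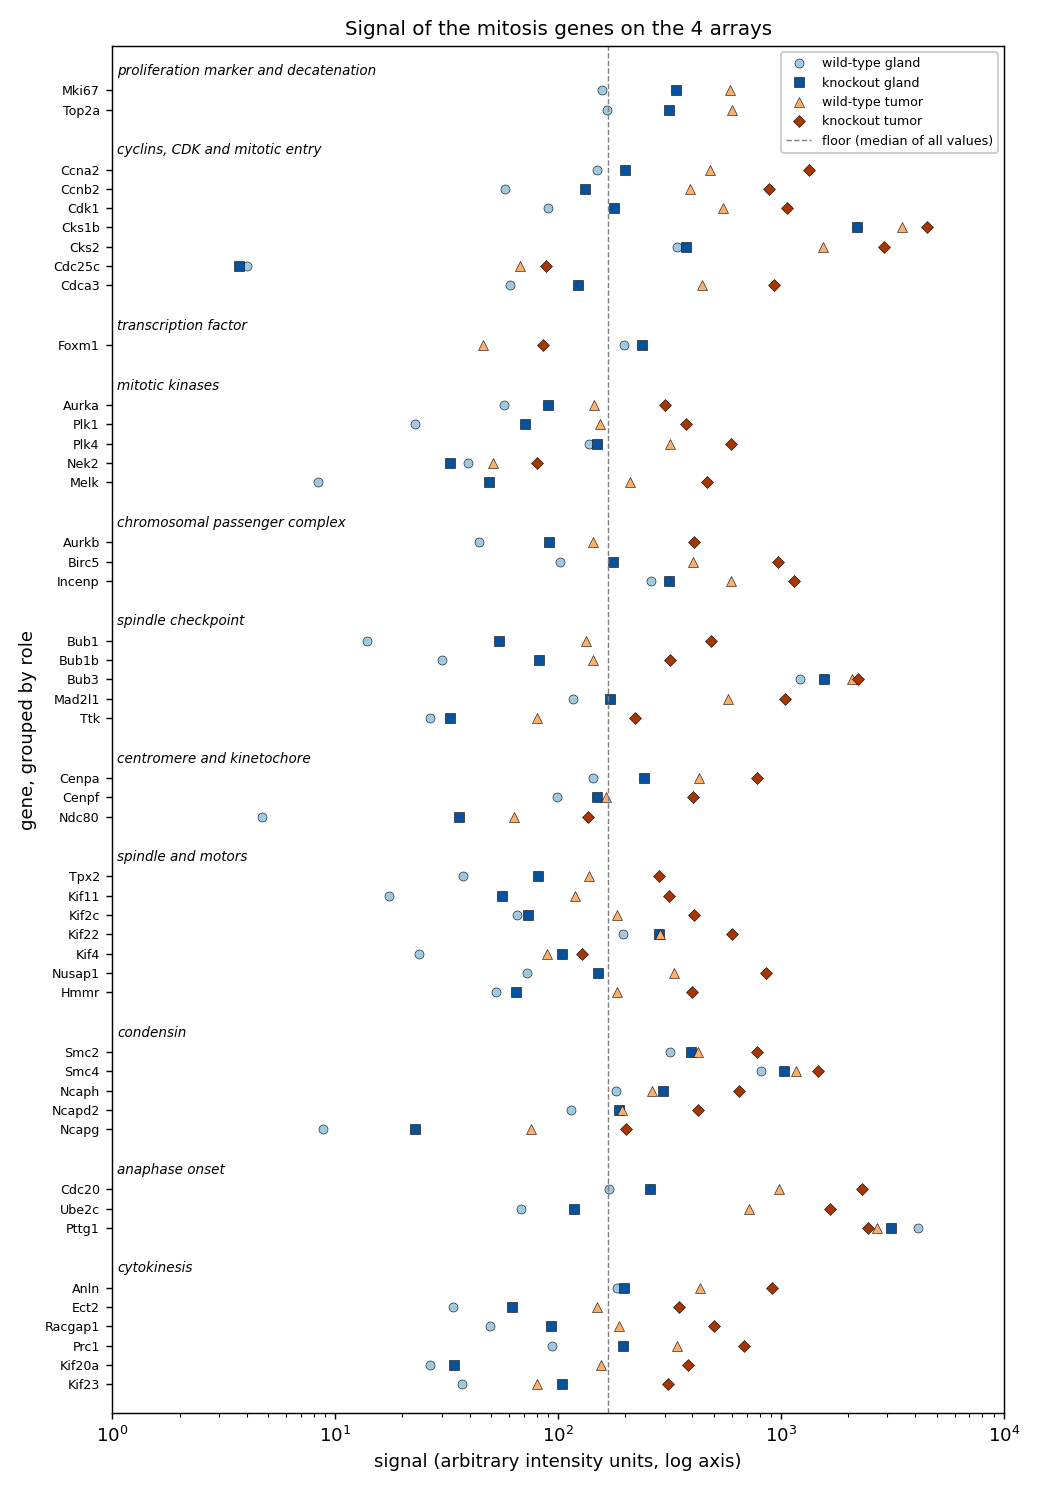
Signal (log axis, arbitrary units) of the 47 mitosis genes on each of the 4 arrays, grouped by role, with 1 marker per array and the floor of 168 dashed. In most rows the markers run from wild-type gland through knockout gland and wild-type tumor to knockout tumor. Foxm1 and Pttg1 run the other way between tissues, and the wild-type gland marker of Cks1b lies under that of the knockout gland.

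The first comparison set the knockout tumor against the wild-type tumor. Of all 47 measured members 27 were higher in the knockout tumor and none was lower, where 1.85% of all 12393 genes were higher and 1.79% lower. The 27 were all among the 43 that reached the floor, at a background of 2.14% of 8286 genes higher and 1.93% lower. The median log2 difference was 1.02 over the 47 members and 0.01 over all genes. The difference was positive in 46 members (51% of all genes), Pttg1 being the exception, and above the spread between probe sets in 45 (23.1%), Bub3 and Pttg1 being within it and none below it (20.6%). No sign turned under any of the 3 other scalings tried.

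The size of this difference was narrow. Quartiles over the members were 0.85 and 1.18, and 33 members lay between 0.75 and 1.25, so that the 2-fold line runs through a dense group and the number past it depends on small shifts. Mki67 at 1.99-fold and Prc1 at 1.92-fold stood just outside, and Kif22 at 2-fold and Bub1b at 2.01-fold just inside. With the median of all values as the offset in place of 27.3, the median over the 43 was 0.76 and 6 were higher. With the floor set on the mean over the arrays, 26 members were compared and 13 were higher. Among the 29 members at or above the floor in both tumors 16 were higher, and the other 11 reached the floor in the knockout tumor only, where the filter favours higher values.

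Between the glands, the same comparison in tissue without a tumor gave smaller values. The median over the 47 members was 0.55 against 0.04 for all genes, 43 were positive (55.8% of all genes) and 34 were above the spread between probe sets (24.8%). Pttg1 alone was below it (12.7%). Only 3 of 47 were higher, Kif4, Melk and Kif23, with a background of 1.19%, and none was lower (0.282%). Of the 43 that reached the floor 2 were higher (1.12%). In all 3 both gland signals were below the floor, as they were for 26 of the 47 members. Over all probe sets the knockout gland array had the higher median signal, 199 against 166, and lower quartile, 44.2 against 34.6. With arrays centred on their medians, by quantile normalization or by cyclic loess, no member that reached the floor was higher, whereas with an offset of 1 in place of 27.3 there were 14. Centring moved the median of all genes at or above the floor from 0.01 to -0.21 and that of the 43 members from 0.55 to 0.32, and it turned the split of all genes from 93 higher and 21 lower to 44 and 40. Over these scalings 36 of the 47 members stayed positive, Cdc25c, Nek2 and Pttg1 stayed negative, and Cks1b, Cks2, Plk4, Ttk, Kif2c, Hmmr, Anln and Kif20a turned sign.

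**Figure D3:**
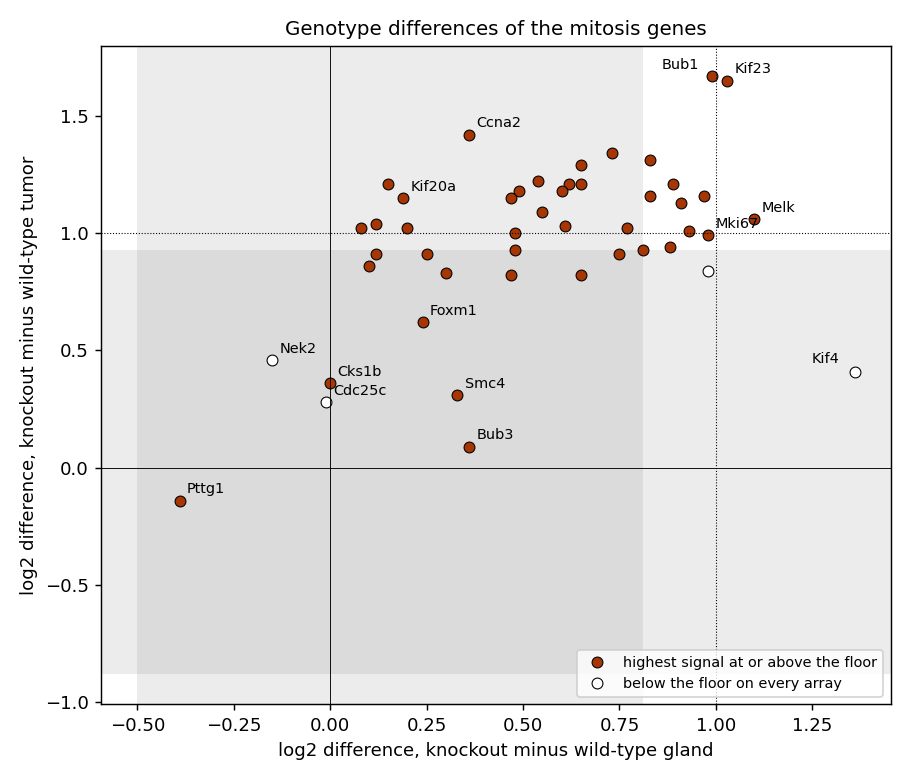
Log2 difference of each of the 47 mitosis genes between knockout and wild type, in gland (x axis) and tumor (y axis). Filled points reached the floor, open points did not, shaded bands hold the central 95% of the 8286 genes compared and dotted lines mark 2-fold. Most members lie above the tumor band, and along the gland axis they run from -0.39 to 1.36.

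The gland and tumor differences rest on different arrays. Over the 47 members, whose points all come from the same 4 arrays, Pearson's r between the gland and the tumor difference was 0.48. Over the 8286 genes at or above the floor it was 0.02. The difference was more positive in the tumor in 42 members (47.2% of all genes), the median over the 47 being 0.47, and no member passed 4-fold for this difference of differences (0.299% of all genes higher and 0.565% lower). Ccna2 and Ttk had the largest, 1.06 and 1.05, and Kif4 had the most negative, -0.95. The number of members more positive in the tumor depended on the offset. Of the 43 that reached the floor it was 40 as reported, with a median of 0.52. With an offset of 1 it was 31, with a median of 0.39. With the median of all values as the offset it was 41, with a median of 0.5.

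Tumor against gland was the larger contrast. In wild type 34 of 47 members were higher in the tumor and 1 was lower, at a background of 10.1% and 15.8% of all genes, with a median of 1.49 against -0.13. In knockout 40 were higher and 1 was lower, at 9.59% and 18.6%, with a median of 1.89 against -0.17. Of the 34 in wild type 4 were at or above the floor on both arrays, 17 in the tumor only and 13 on neither. For the 40 in knockout these numbers were 16, 22 and 2. Most of these folds thus rest on gland signals below the floor. The difference was positive in 45 members in each genotype (41.9% and 40.1% of all genes). It was above the spread between probe sets in 38 in wild type (17%) and 42 in knockout (18.4%), and below it for Foxm1 alone in each (26.8% and 32.4%). Over the 43 at or above the floor the numbers were 31 and 38 higher and 1 and 1 lower, at 13.1% and 12.6% higher and 16.7% and 18% lower of 8286 genes. With the median of all values as the offset, the wild-type median over these 43 was 0.70 in place of 1.49, with 13 higher and 0 lower, and the knockout median was 1.22 in place of 2.04, with 0 lower. With the floor set on the mean over the arrays, 17 and 22 were higher. These 2 comparisons share their arrays with the genotype comparisons. Ranges were wide, from -1.62 for Foxm1 to 2.97 for Ube2c in wild type.

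**Figure D4:**
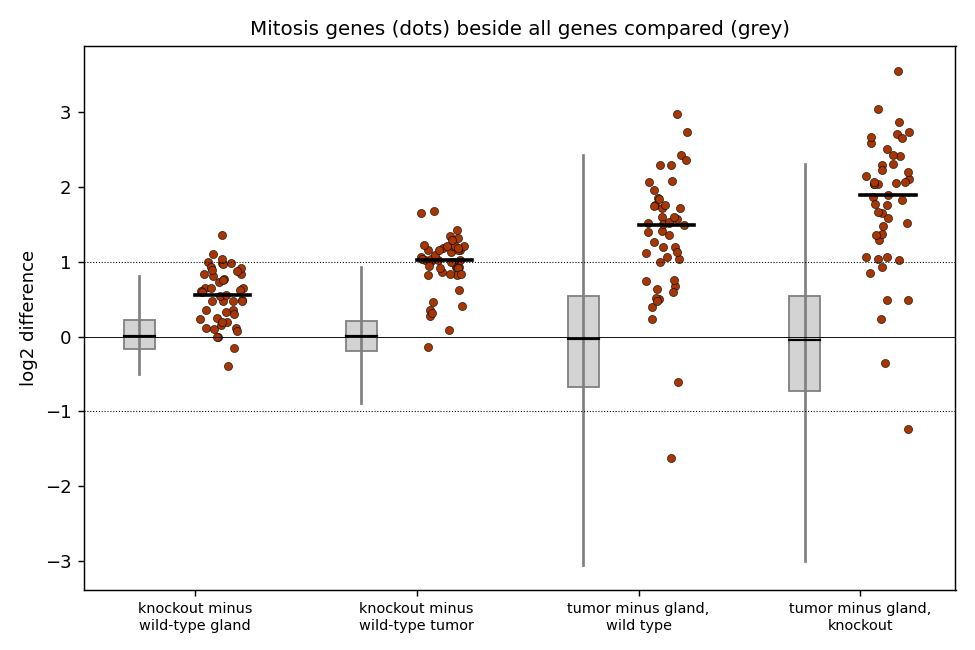
Log2 differences in the 4 comparisons. Dots are the 47 mitosis genes with their median as a thick line, and the grey boxes and lines show the quartiles and the central 95% of the 8286 genes compared. Member medians are 0.55, 1.02, 1.49 and 1.89, and the medians of all genes compared lie between -0.04 and 0.01.

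By role, the general markers of division came first. Mki67, which coats mitotic chromosomes and is the standard proliferation antigen, had signals of 157, 337, 592 and 1204. Top2a, the topoisomerase that untangles sister chromatids, had 165, 314, 600.5 and 1376.5. Both genes were higher in knockout in each tissue, Mki67 by 1.98-fold in the gland and 1.99-fold in the tumor and Top2a by 1.78-fold and 2.24-fold. The genotype difference of 38 of the 47 members lay within 0.5 of that of Mki67 in the tumor, and of 27 in the gland. Top2a had a second probe set with signals from 0.4 to 1.2, all below the floor.

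Cyclins, their kinase and the factors of mitotic entry were at least 2-fold higher in the wild-type tumor than in its gland in 6 of 7 measured genes, all but Cks1b, where 10.1% of all genes were. The 6 include Cdc25c, which was below the floor on every array. Cdk1, the kinase that drives entry into mitosis, had signals of 90.4, 178, 548 and 1067, and its partner Ccnb2, cyclin B2, had 57.9, 132.5, 388 and 881. Both were 4.89-fold and 4.88-fold higher in the wild-type tumor than in the wild-type gland. Ccna2, the cyclin of S phase and G2, had 149.5, 199, 479 and 1328, with knockout and wild type 1.28-fold apart in gland and 2.68-fold in tumor. Its second probe set, with 118, 155, 331 and 628, gave log2 differences of 0.33 and 0.87. Cdca3, which promotes mitotic entry by way of the degradation of the kinase Wee1, had 60.6, 123, 443 and 929. Cdc25c, the phosphatase that activates Cdk1, was below the floor throughout, with 4, 3.7, 67.2 and 87.8.

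The Cdk-binding subunits Cks1b and Cks2 are close relatives and behaved differently. Cks2 had 342, 374, 1535.5 and 2902.5, 4.24-fold and 7.31-fold higher in tumor than in gland of the same genotype, and 1.87-fold higher in the knockout than in the wild-type tumor. Cks1b had 2181, 2179, 3499.6 and 4495, which was 1.60-fold and 2.05-fold between tissues and 1.28-fold between tumors. By these probe sets the gland signals of either gene differed by less than the spread between probe sets. A further probe set of Cks2 had 146, 216, 912 and 1983, with a gland difference of 0.49, beyond that spread. The further one of Cks1b had 789, 707, 1164 and 1262.

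Foxm1, the transcription factor that works with MuvB to switch on this programme, stood apart by its brightest probe set. That probe set had 198, 238, 46 and 85.6, 3.07-fold lower in the wild-type tumor than in the wild-type gland and 2.35-fold lower in knockout, the only member counted as lower in either contrast. Its other probe sets were all below the floor. One of them ran like the rest of the members, with 1.7, 4.7, 19.4 and 49.5, whereas another had 60, 90.7, 28 and 39.1 and the dimmest did not exceed 5.9. A probe set shared with 2 other genes, not used here, had 3.8, 58.4, 50.6 and 87.3. The direction of Foxm1 between tissues therefore differed between its probe sets, none of them above the floor in a tumor. Between the tumors the brightest gave 1.54-fold higher in knockout.

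The mitotic kinases followed the common order except for Nek2. Plk1, the polo kinase needed from mitotic entry to cytokinesis, had 22.7, 70.7, 153 and 376. Aurka, the Aurora kinase of spindle poles, had 57, 90.3, 145 and 300.2. Melk, a kinase of dividing and progenitor cells, had 8.4, 49, 209.7 and 467, the widest contrast between tissues among the kinases at 6.64-fold in wild type. All 3 were near 2-fold between the tumors, at 2.23-fold, 1.90-fold and 2.08-fold. Plk4, which starts centriole duplication, had 137, 149, 316 and 594 and by this probe set differed in the gland by 0.10, within the spread between probe sets. Its 2 other probe sets gave 0.38 and 0.35, beyond it. Nek2, a kinase of centrosome separation, had 39.3, 32.7, 51.2 and 80.6, all below the floor.

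The chromosomal passenger complex corrects faulty attachments and later guides cytokinesis. Its kinase Aurkb had 44, 91.1, 144 and 405, its subunit Birc5, known as survivin, had 102, 177, 404 and 969.9, and the scaffold Incenp had 260.2, 316, 598 and 1144. All 3 kept the common order by these probe sets. Aurkb was 2.53-fold, Birc5 2.31-fold and Incenp 1.87-fold higher in the knockout tumor, and in the gland the differences were 0.73, 0.65 and 0.25. A second Aurkb probe set, also above the floor, gave 0.58 in gland and 0.98 between the tumors. A further Incenp probe set above the floor gave 0.16 and 0.76. Another, below the floor on all arrays, gave 0.83 and 0.73 and did not keep the order, with 6.2, 32.1, 4.1 and 24.7.

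The spindle checkpoint holds anaphase until every kinetochore is attached. Its kinase Bub1 had 13.9, 54.3, 133 and 484, with the largest difference between the tumors among the members, 3.19-fold, although only the knockout tumor reached the floor. A second Bub1 probe set, below the floor on all arrays, gave a log2 difference of 0.93. Bub1b, the inhibitor of the anaphase-promoting complex also called BubR1, had 30.2, 82.2, 144 and 317. Ttk, the kinase Mps1, had 26.7, 32.8, 80.4 and 222, a difference of 0.15 in gland and 1.21 in tumor. Mad2l1, which binds Cdc20 to block it, had 116, 171, 576 and 1036 and was 4.21-fold higher in the wild-type tumor than in the wild-type gland.

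Bub3, the adaptor that brings Bub1 to kinetochores, was the checkpoint gene that differed least between the tumors. It had 1213, 1565, 2075 and 2212, 1.07-fold between the tumors, within the spread of probe sets. Its probe sets disagreed on the tissues. The brightest was 1.69-fold higher in the wild-type tumor than in the gland, and another above the floor was lower, with 297, 279, 156.5 and 174. Of 15 members with several probe sets above the floor, Bub3 was the only one with signs that disagreed between gland genotypes or between tissues, and none disagreed between the tumors.

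At the centromere, Cenpa, the histone that marks it, had 144, 241, 429 and 778. Cenpf, a large kinetochore protein of late G2 and mitosis, had 98.4, 149, 163 and 404, and Ndc80, which binds microtubule ends, had 4.7, 35.7, 63.4 and 136. Cenpf differed between tissues of wild type by 0.60, within the spread of probe sets, and was 2.26-fold higher in the knockout than in the wild-type tumor. A second Cenpf probe set, below the floor on all arrays, gave -0.65 between the tissues and 0.29 between the tumors. Ndc80 stayed below the floor throughout.

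Spindle proteins and motors were 2-fold or more higher in the knockout tumor in 5 of 7 cases, against 1.85% of all genes. Kif11, the motor that pushes the poles apart, had 17.4, 55.7, 119.5 and 313. Nusap1, a microtubule-bundling protein, had 72.7, 151, 329.8 and 856, and Tpx2, which activates Aurka on the spindle, had 37.2, 81.5, 137 and 282. In the knockout gland these 3 were 1.86-fold, 1.78-fold and 1.69-fold higher by these probe sets. Their other probe sets gave gland differences within the spread of probe sets, 0.22 and 0.23 for Kif11, 0.08 for Nusap1 and 0.25 for Tpx2. Hmmr, a spindle protein that also binds hyaluronan, had 52.7, 64.3, 184 and 399.8, and Kif2c, a motor that takes microtubules apart, had 65, 72.8, 183 and 405. Those 2 differed in the gland by 0.20 and 0.12, within the spread of probe sets, and by 1.02 and 1.04 between the tumors. All these gland signals were below the floor. The 3 other Hmmr probe sets, below the floor on all arrays, gave gland differences of 0.40, 0.60 and 0.88, and those of Kif2c gave 0.56, 0.11 and -0.05. Kif22, a chromosome-bound motor, had 195, 283.5, 286 and 601, with a wild-type tissue difference of 0.50. Its 2 other probe sets gave larger ones, 1.43 and 1.52. One had 18.7, 35.9, 97 and 296, and the other had 9, 3.7, 76.8 and 160.5. Kif4, another chromosome-bound motor, had 23.7, 104, 89.3 and 128, the largest gland difference among members at 2.57-fold, but with no signal at the floor.

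Condensin, which compacts chromosomes, had small tissue differences in wild type by the brightest probe sets of its genes, Ncapg apart. Its subunit Ncaph had 181, 294, 263 and 645, Ncapd2 had 114, 188, 193 and 423, and Ncapg had 8.8, 22.7, 75.7 and 202. Of the core subunits shared by both condensin complexes, Smc2 had 316, 396, 426 and 778, and Smc4 had 815, 1029, 1171.5 and 1458. Over the 5 genes the median log2 difference was 0.51 for wild-type tumor against gland. Of the 5 only Ncapg, at 1.51, was counted as higher, where 10.1% of all genes were. Between the tumors the median was 1.03, and Ncaph, Ncapd2 and Ncapg were 2.32-fold, 2.05-fold and 2.22-fold higher. By the brightest probe sets, the wild-type tissue difference of Smc2, Smc4, Ncaph and Ncapd2 was within the spread of probe sets. A second Ncaph probe set gave 0.74, beyond that spread of 0.64. Smc4 differed by 0.33 in gland and 0.31 in tumor by its brightest probe set. Its 2 other probe sets, both above the floor, gave larger wild-type tissue differences, 2.56 and 1.46. One had 122, 236, 856 and 1223, and the other had 116, 175, 366 and 412.5.

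At anaphase onset, the anaphase-promoting complex marks securin and cyclin B for destruction. Ube2c, its ubiquitin-conjugating enzyme, had the largest tissue difference among the 47 members in either genotype, with 68.3, 117.5, 719 and 1664, 7.81-fold and 11.7-fold higher in tumor than in gland. Cdc20, its coactivator, had 168, 257, 976 and 2311, 5.13-fold and 8.23-fold. Their differences between the tumors were 2.27-fold and 2.33-fold. Of the 2 other probe sets of Cdc20, one had 124.5, 194, 431 and 840.5 and the other 2.6, 3, 50.9 and 169.

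Pttg1, securin, which holds separase inactive until anaphase, ran against the others. Its brightest probe set had 4105, 3121, 2703 and 2445, so the highest signal was in the wild-type gland and the lowest in the knockout tumor. Of the 2 other probe sets, one had 925, 774, 800.3 and 695, and the other had 234, 194, 50.4 and 29.1, both also lower in knockout in both tissues and lower in tumor than in gland. By the brightest, Pttg1 was 1.31-fold lower in the knockout gland, beyond the spread of probe sets, and 1.10-fold lower in the knockout tumor, within it.

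The 6 cytokinesis genes differed between the tumors by log2 values from 0.94 to 1.65. Anln, anillin, the scaffold of the contractile ring, had 184, 197, 434 and 909.9. Ect2, the exchange factor that activates RhoA there, had 33.7, 62, 149 and 346.5, and its partner Racgap1 had 49.2, 92.5, 188 and 500.4. All of these were higher in the knockout tumor, by 2.03-fold, 2.13-fold and 2.45-fold. Prc1, which bundles the central spindle, had 94.1, 196, 340.3 and 679. The motor Kif20a had 26.7, 34.2, 156 and 381. The motor Kif23, which pairs with Racgap1 in centralspindlin, had 37, 104, 80.4 and 311. These motors were 2.23-fold and 3.14-fold higher in the knockout tumor. Anln and Kif20a differed in the gland by 0.08 and 0.19, within the spread of probe sets, and Kif23 by 1.03. The 2 other Kif23 probe sets, below the floor on all arrays, gave 0.23 and 0.58 in the gland and 0.13 and 0.51 between the tumors.

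Other genes of the cycle were taken from lists and compared on the same scale. Of all 12393 genes 1.85% were higher and 1.79% lower between the tumors, and 1.19% were higher and 0.282% lower in the gland. Of 53 further mitosis genes 37 were measured, of which 13 were higher between the tumors and none lower, with a median of 0.94. The largest difference between the tumors among them was that of Depdc1a, 3.04-fold. Its signals were 14.8, 37.6, 39.6 and 176, of which only the last reached the floor. In the gland 1 of the 37 was higher, with a median of 0.36. Of 41 DNA replication and nucleotide supply genes 37 were measured. Between the tumors 7 were higher and the median was 0.79, and in the gland 2 were higher and the median was 0.32. Lig1, the DNA ligase of replication, was 2.90-fold higher between the tumors, with 165, 276, 244 and 759.6, and Mcm5, part of the replicative helicase, had 54.5, 166, 136 and 441.

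Lists of cell cycle regulators and of machinery not confined to mitosis had medians closer to 0. The 22 measured G1 cyclins, CDK inhibitors and E2F genes had medians of -0.05 in gland and 0.35 in tumor, with 1 higher in each (1.19% and 1.85% of all genes). Ccnd2, a G1 cyclin, had 3326, 2946.5, 672 and 1619 and was 2.35-fold higher in the knockout tumor. The 14 measured genes of the anaphase-promoting complex itself had medians of -0.12 and -0.02, the 7 cohesin genes -0.04 and 0.11, and the 10 MuvB, DREAM and NF-Y genes 0.16 and 0.10, with no gene higher or lower in any of these. Cohesin members Rad21 and Smc3 differed by 0.75 and 0.70 between the tumors.

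**Figure D5:**
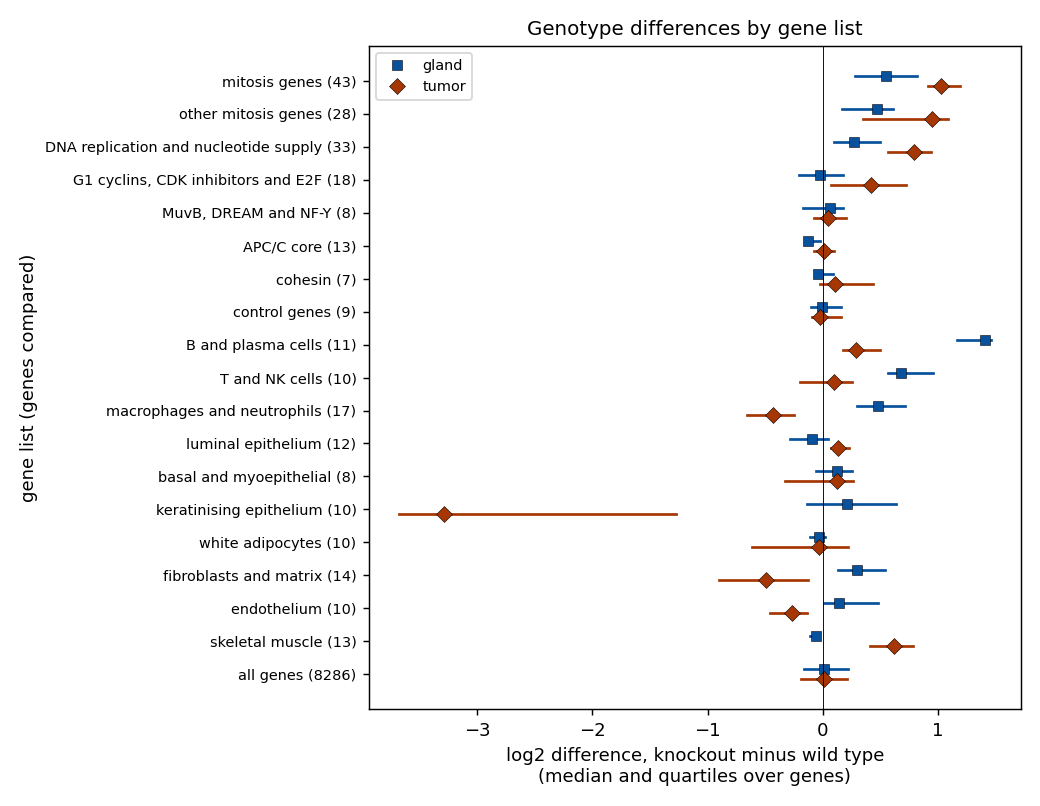
Median (marker) and quartiles (line) of the log2 difference between knockout and wild type over the genes of each list at or above the floor, for gland (squares) and tumor (diamonds), with the number of genes compared in brackets. The mitosis genes have medians of 0.55 and 1.03, B and plasma cell genes are highest in the gland and keratinising genes lowest in the tumor.

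Markers of cell types also differed between the arrays, and their part in the differences above was not tested. In the gland 1.19% of all genes were higher in knockout and 0.282% lower. Of 12 measured B and plasma cell genes 9 were higher there and none was lower, and their summed signal was 3722 in wild type and 9489 in knockout. For T and NK cells 2 of 12 were higher, with sums of 2725 and 4512, and for macrophages and neutrophils 4 of 18, with 18226 and 25344. Luminal epithelial genes had 0 of 14 higher and 1 lower, with 31686 and 26333, and basal and myoepithelial genes were all within 2-fold, with 8707 and 8688. None of these marker genes was listed at 0 on any array.

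Between the tumors 1.85% of all genes were higher in knockout, 1.79% were lower and 51% had a positive difference. Of 12 measured keratinising epithelial genes 7 were lower in knockout and none was higher, with summed signals of 10786 and 1930. Macrophage and neutrophil genes had 3 of 18 lower, with 43325 and 32283, and B and plasma cell genes 1 of 12 higher, with 1566 and 2220. Luminal genes were all within 2-fold, 13 of 14 being positive, with sums of 53359 and 59997, and basal genes had 1 higher and 2 lower of 8, with 28659 and 27792. Fibroblast and matrix genes summed to 36207 and 32237. Between gland and tumor of wild type, the summed signal of white adipocyte genes was 60735 and 6258 and that of skeletal muscle genes 73503 and 466, so these arrays differed widely in the marker genes of other cells.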

How the data were processed

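The deposited file holds 1 linear intensity value for each of 22690 probe sets on each of 4 Affymetrix mouse arrays, made by the authors; their software is not named in the labels used here. Per the labels' protocols, biotin-labelled cRNA was made from equal amounts of RNA pooled from 5 mice per group. With 2% of values trimmed at either end, all 4 arrays averaged 500, so the deposited intensity values share a common scaling, and median signals were between 151 and 199. Their number, 1 array per group, limits the precision.

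Values were set on a log2(signal + 27.3) scale, the offset being the lower quartile of all values. Gene symbols came from the platform annotation, updated by gene identifier for 20351 of 20380 probe sets with 1 symbol, while 691 had several and were not used and 1555 were unnamed here, besides control probe sets. Where a gene had several probe sets, the one brightest on average was used. Members were counted over all 12393 genes and again over the 8286 with a signal of at least 168, the overall median, on some array. A difference was counted at 2-fold, and the difference of differences at 4-fold. The spread between probe sets is the SD of the difference between the 2 brightest probe sets of 2764 genes, divided by the square root of 2. Named genes were every member, and of other lists up to 2 with the largest difference in a comparison. The members and lists were chosen with earlier results of these data known. The procedure was tested on simulated data. Alternatives covered the offset, the floor, the scaling (limma 3.58.1 in R 4.3.3) and the choice of probe set. Analyses ran in Python 3.11.15 with pandas 2.3.3 and numpy 2.4.6.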

Additional observations from a re-analysis of the deposited data

How the results depend on the processing

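Over 9 alternatives the median over the members stayed positive, between 0.28 and 0.72 for the genotype difference in gland, 0.76 and 1.14 in tumor, 0.70 and 1.84 between the tissues of wild type, 1.22 and 2.37 between those of knockout, and 0.39 and 0.73 for the difference of differences. With the median of all values as offset the medians were 0.28, 0.76, 0.70 and 1.22 in the first 4, and the members higher were 0 in gland, 6 in tumor and 13 between the wild-type tissues. The members higher in gland, 2 as reported, were 14 with an offset of 1, 1 with the mean of all probe sets of a gene and 0 with the floor on the mean over the arrays, median centring, quantile normalization or cyclic loess. With the floor on the mean, which leaves 26 members, 13 were higher in tumor and 17 and 22 between the tissues of wild type and knockout. The members lower in tumor than gland, 1 as reported in each genotype, were 0 in both with the median of all values as offset, the floor on the mean and the mean of all probe sets, 2 in both without shared probe sets, and 0 in knockout under the 3 other scalings. The cause was not tested. In both glands 26 of the 47 members were below the floor, which limits the gland values.

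Among single members, turned signs were listed only for differences of at least 2-fold. Leaving out probe sets marked as matching several transcripts turned the sign of Top2a to -0.01 between the tumors and -0.04 for tumor against gland in each genotype. It turned Cdca3 to -0.11, -0.80 and -0.87, since probe sets below the floor then stood for these 2 genes. Smaller differences turned as well, among them Bub3 between the tissues (-0.82 in wild type, -0.60 in knockout). In the gland Top2a, Cdca3 and Kif22 turned to -0.01, -0.04 and -0.23. The mean of all probe sets gave Kif2c -0.13 between the wild-type tissues. No paired analysis was possible because each group had 1 array.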
